A study of Mus musculus with 9 samples.

Results

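Genes that the nuclear receptor PPAR-alpha switches on in fasted tissue were followed in the hearts of 9 mice. The 8 members were Pdk4, Angptl4, Ucp3, Acot1, Acot2, Cd36, Plin2 and Fgf21, and each was taken as the probe set whose only gene symbol in the platform annotation was that name. This gave 8 probe sets, 1 per gene, of the 33793 in the table, and 7 of the 8 were bright enough to be tested. Hearts of 2 month old mice had been snap frozen, and RNA of each heart was measured on 1 array. The 3 genotypes were Col4a3-/-OPN-/- (3 hearts), Col4a3-/- (3 hearts) and wild type (3 hearts). Col4a3 codes a chain of the type IV collagen of basement membranes, and its loss gives mice Alport disease of the kidney. OPN is osteopontin, a secreted matrix protein and cytokine that the gene Spp1 codes. Both mutant genotypes lack Col4a3 in the whole animal, so the heart is not the only affected organ, and the design holds no group that lacks osteopontin alone. Feeding state, sex, strain background and hour of collection, which all bear on fasting genes, were not given in the sources used here.

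PPAR-alpha is a transcription factor that binds fatty acids and, paired with a retinoid X receptor, raises transcription of genes for fatty acid use. In heart muscle, which lives mainly on fatty acids, its targets respond within hours to fasting, when adipose tissue releases fatty acids into the blood. The 8 members cover successive steps of that response. Cd36 carries fatty acids across the cell membrane, Angptl4 is a secreted inhibitor of lipoprotein lipase, and Plin2 coats lipid droplets. Acot1 and Acot2 split acyl-CoA into free fatty acid and coenzyme A, in the cytosol and in mitochondria. Ucp3 is a carrier of the mitochondrial inner membrane, Pdk4 is a kinase that shuts off pyruvate dehydrogenase and so spares glucose, and Fgf21 is a fasting hormone made mostly by the liver.

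Promoter windows of 250 bases before the annotated start were read from RefSeq for assembly GRCm38.p6, which held 7 of the 8 members; none was at hand for Angptl4. The 5 printed here belong to the 3 members that varied most within the Col4a3-/- hearts (Pdk4, Ucp3 and Acot1) and to the 2 of the 7 tested members that varied least there (Cd36 and Plin2). Each is written 5′ to 3′ on the strand of its gene, and capitals mark matches to the motifs named after the sequences.
Pdk4: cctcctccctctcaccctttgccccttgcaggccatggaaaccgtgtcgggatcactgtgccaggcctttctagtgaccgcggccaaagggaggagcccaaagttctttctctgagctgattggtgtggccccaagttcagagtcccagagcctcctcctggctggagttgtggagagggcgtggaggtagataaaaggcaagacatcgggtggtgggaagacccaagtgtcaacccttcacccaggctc
Ucp3: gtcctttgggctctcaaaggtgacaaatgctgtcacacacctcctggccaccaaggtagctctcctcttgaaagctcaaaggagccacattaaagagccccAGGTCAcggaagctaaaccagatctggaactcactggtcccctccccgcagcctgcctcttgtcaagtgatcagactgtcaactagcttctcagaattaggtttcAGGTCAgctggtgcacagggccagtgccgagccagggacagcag
Acot1: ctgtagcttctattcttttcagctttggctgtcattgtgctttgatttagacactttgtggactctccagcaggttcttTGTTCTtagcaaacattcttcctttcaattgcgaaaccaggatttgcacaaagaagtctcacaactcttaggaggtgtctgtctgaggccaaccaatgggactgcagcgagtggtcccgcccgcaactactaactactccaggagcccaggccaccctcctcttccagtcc
Cd36: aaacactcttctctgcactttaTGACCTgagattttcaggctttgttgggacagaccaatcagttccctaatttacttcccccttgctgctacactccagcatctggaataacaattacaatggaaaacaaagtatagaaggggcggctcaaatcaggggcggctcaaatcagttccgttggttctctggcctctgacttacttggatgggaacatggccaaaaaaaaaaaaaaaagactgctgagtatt
Plin2: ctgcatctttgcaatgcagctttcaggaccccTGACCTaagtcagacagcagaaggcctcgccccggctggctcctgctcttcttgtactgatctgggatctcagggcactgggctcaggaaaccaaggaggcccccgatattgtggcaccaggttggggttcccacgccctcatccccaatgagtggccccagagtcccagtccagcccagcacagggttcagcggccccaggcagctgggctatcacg
The windows lie at chr6:5496279-5496528 on the minus strand for Pdk4, chr7:100472741-100472990 on the plus strand for Ucp3, chr12:84009252-84009501 on the plus strand for Acot1, chr5:17835897-17836146 on the minus strand for Cd36 and chr4:86670060-86670309 on the minus strand for Plin2. The letters searched on both strands were AGGTCA, the core letters that PPAR and other nuclear receptors bind, and DR1, the PPAR element made of 2 copies of AGGNCA with 1 base between them. Also searched were TGTTCT, part of the glucocorticoid receptor element, the E-box CACGTG and the TATA box TATAAA. Of 32851 promoter windows of this length, 14.0% held AGGTCA, 0.338% held DR1, 16.1% held TGTTCT, 6.02% held CACGTG and 12.4% held TATAAA. The letters AGGTCA stood 149 and 44 bases upstream of the Ucp3 start, and on the opposite strand, where it reads TGACCT, 228 bases upstream of Cd36 and 218 bases upstream of Plin2. The Acot1 window held TGTTCT 171 bases upstream, and the Fgf21 window held CACGTG and TATAAA. None of the 7 windows held DR1, and those of Pdk4 and Acot2 held none of the 5 motifs. AGGTCA was thus found in the window of a widely varying member (Ucp3) and in those of the 2 least variable tested ones (Cd36 and Plin2).

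The values are log2 RMA signals, in which 1 unit is a doubling, and ± gives the SD of 3 hearts. Signals of different probe sets do not share a scale, so levels are compared only between hearts. Col4a3 itself was dim everywhere, at 4.87 to 5.26 in Col4a3-/-OPN-/- hearts, 4.96 to 5.27 in Col4a3-/- hearts and 5.07 to 5.52 in wild type hearts, and no probe set carried the single symbol Spp1, so neither deletion could be checked here. The 8 cardiomyocyte markers were all above the filter, and their summed log2 signal was 15.3 in each Col4a3-/-OPN-/- heart, 15.1 to 15.3 in Col4a3-/- hearts and 15.2 to 15.3 in wild type hearts. Col4a3-/- hearts agreed least among themselves, with a mean Pearson's r over probe sets of 0.942 to 0.955 within the genotype, against 0.980 within Col4a3-/-OPN-/- and 0.984 to 0.985 within wild type. Of all hearts, Col4a3-/- replicate 3 agreed least with the rest. Its mean r with the other arrays was 0.943, against 0.965 to 0.977 for the other hearts. Of the 4 markers of lung in the list, 2 were above the filter. All 4 had a summed log2 signal of 6.91 to 9.98, 6.99 to 12.3 and 7.06 to 7.51 in Col4a3-/-OPN-/-, Col4a3-/- and wild type hearts. Atrial markers (5 of 5 above the filter) summed to 13.6 to 13.8, 12.8 to 13.7 and 13.8 to 13.9 in the same order. Xist, which marks an inactive X chromosome, was high in Col4a3-/-OPN-/- replicate 2 (8.56) and in Col4a3-/- replicates 1 (7.59) and 3 (8.50), and lay at 4.52 to 4.77 in the other 6 hearts. Y-linked genes had a summed log2 signal of 6.12 to 6.23 in those 3 hearts and 8.84 to 9.18 in the other 6. By these signals all 3 wild type hearts were male and Col4a3-/- replicates 1 and 3 female. Sex and genotype are thus partly mixed in Col4a3-/- against wild type. The part of lung, atrium or sex in the values below was not tested, beyond a fit with Y-linked signal as a covariate. In RNA of a whole heart, fewer cells of a type and less RNA per cell cannot be told apart.

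Pdk4 lies at the switch from glucose to fatty acid use. Its signal was 11.91, 11.30 and 12.42 in Col4a3-/-OPN-/- hearts, 10.39, 11.32 and 12.58 in Col4a3-/- hearts, and 11.95, 12.34 and 12.43 in wild type hearts. The highest and the lowest of the 9 hearts were both Col4a3-/-, replicates 3 and 1, and the 3 genotypes overlapped. Pdk4 averaged 11.43 ± 1.10 in Col4a3-/- hearts and 12.24 ± 0.25 in wild type hearts, a log2 difference of -0.81 (SE 0.45, 95% interval -1.80 to 0.18), which is 0.570 of the wild type signal. That is the largest difference between genotypes of any member, and it did not pass the test (limma adjusted p = 0.651). Without Col4a3-/- replicate 3 it was -1.39 (adjusted p = 0.415), and without replicate 1 it was -0.29, so single hearts moved it by more than 1.5 times. Col4a3-/-OPN-/- hearts averaged 11.88 ± 0.56, which was 0.44 above Col4a3-/- (95% interval -0.54 to 1.43, adjusted p = 0.691) and -0.37 relative to wild type (95% interval -1.35 to 0.62, adjusted p = 0.999). The difference from Col4a3-/- had the opposite sign without Col4a3-/- replicate 1 (-0.07).

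**Figure D1:**
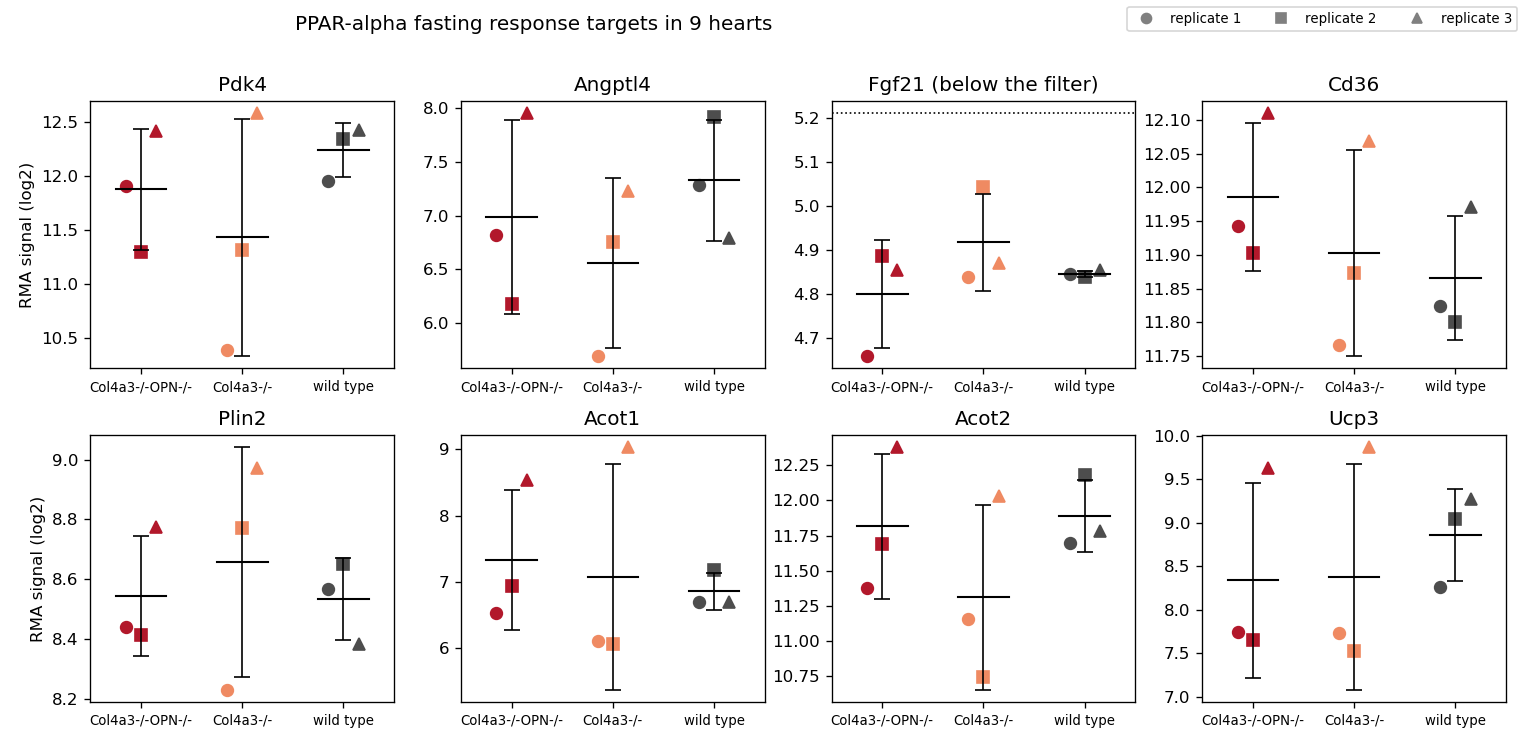
Log2 RMA signal (vertical axis, own scale in each panel) of the 8 members in each heart, with 1 point per heart and a bar at the mean with the SD of 3 hearts, for Col4a3-/-OPN-/-, Col4a3-/- and wild type. In Pdk4 the Col4a3-/- hearts run from 10.39 to 12.58 and enclose all the others, and in Fgf21 all 9 hearts lie under the filter at 5.21.

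Among the other enzymes that set pyruvate dehydrogenase activity, Pdk2, a second kinase of the same complex, was steady. It measured 10.93, 11.06 and 11.19 in Col4a3-/-OPN-/- hearts, 10.98, 11.13 and 11.27 in Col4a3-/- hearts, and 11.10, 11.20 and 11.18 in wild type hearts. Its differences were -0.07 for Col4a3-/-OPN-/- against Col4a3-/-, -0.10 for Col4a3-/-OPN-/- against wild type and -0.03 for Col4a3-/- against wild type. Of the 12 tested genes of the complex, its kinases and phosphatases, 0 passed the test in any comparison. The extremes were Pdp2, a phosphatase that reactivates the complex (0.33 for Col4a3-/-OPN-/- against Col4a3-/-), and Pdpr, the regulatory subunit of the phosphatases (-0.28 for Col4a3-/- against wild type).

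Acot1 and Acot2 are neighbouring genes of chromosome 12 that code closely related thioesterases, and whether either transcript also gives signal on the other's probes was not tested. Their promoter windows were identical in 148 of 295 columns of a gapped alignment (50.2%). No other pair of windows was aligned, so whether this is more than unrelated windows share was not tested. Acot1 varied more than any other member, at 6.53, 6.94 and 8.53 in Col4a3-/-OPN-/- hearts, 6.11, 6.07 and 9.04 in Col4a3-/- hearts, and 6.70, 7.18 and 6.70 in wild type hearts. A gap from 7.18 to 8.53 set replicate 3 of both mutant genotypes apart from the other 7 hearts. Col4a3-/- replicates 1 and 2 were the lowest of the 9, below all wild type hearts. The means were 7.33 ± 1.06, 7.07 ± 1.70 and 6.86 ± 0.28 in Col4a3-/-OPN-/-, Col4a3-/- and wild type hearts. Neither Col4a3-/-OPN-/- against Col4a3-/- (0.26, 95% interval -1.32 to 1.84, adjusted p = 0.898) nor Col4a3-/- against wild type (0.21, 95% interval -1.37 to 1.79, adjusted p = 0.955) passed the test. The sign of Col4a3-/- against wild type rested on 1 heart, since without Col4a3-/- replicate 3 it was -0.77 (adjusted p = 0.775). Col4a3-/-OPN-/- against wild type stood at 0.47, and at -0.13 without Col4a3-/-OPN-/- replicate 3.

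Acot2, the mitochondrial enzyme, varied over a narrower range, with some of the same order of hearts. Its signal was 11.38, 11.69 and 12.38 in Col4a3-/-OPN-/- hearts, 11.15, 10.74 and 12.03 in Col4a3-/- hearts, and 11.70, 12.18 and 11.78 in wild type hearts. The 2 lowest of 9 hearts were again Col4a3-/- replicates 1 and 2, and the highest was Col4a3-/-OPN-/- replicate 3. The mean was 11.82 ± 0.52 in Col4a3-/-OPN-/- hearts, 11.31 ± 0.66 in Col4a3-/- hearts and 11.89 ± 0.26 in wild type hearts. Col4a3-/-OPN-/- exceeded Col4a3-/- by 0.51 (SE 0.32, 95% interval -0.19 to 1.20), and this did not pass the test (adjusted p = 0.516, and 0.267 without Col4a3-/- replicate 3). Col4a3-/- against wild type was -0.58 (95% interval -1.28 to 0.12, adjusted p = 0.646), with values of -0.94 to -0.29 when single hearts were left out. Among 15 other tested acyl-CoA thioesterases and synthetases 0 passed the test in any comparison. The widest values were those of Acss2, an acetyl-CoA synthetase, at 0.67 for Col4a3-/-OPN-/- against Col4a3-/- and -0.49 for Col4a3-/- against wild type.

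Ucp3, a mitochondrial carrier whose level in muscle follows circulating fatty acids, showed a similar split between hearts. It measured 7.74, 7.65 and 9.63 in Col4a3-/-OPN-/- hearts, 7.73, 7.52 and 9.87 in Col4a3-/- hearts, and 8.26, 9.04 and 9.27 in wild type hearts. In both mutant genotypes 2 hearts were below every wild type heart and 1 was above every wild type heart. The group means of 8.34 ± 1.12 in Col4a3-/-OPN-/- hearts, 8.37 ± 1.30 in Col4a3-/- hearts and 8.86 ± 0.53 in wild type hearts therefore describe few of the hearts. Col4a3-/-OPN-/- against Col4a3-/- was -0.04 (95% interval -1.45 to 1.37, adjusted p = 0.985), Col4a3-/-OPN-/- against wild type -0.52 (95% interval -1.93 to 0.89) and Col4a3-/- against wild type -0.48 (95% interval -1.89 to 0.93, adjusted p = 0.862). Each of these intervals reaches past 1 log2 unit, which is a doubling. Single hearts decided the size of Col4a3-/- against wild type, which was -0.16 without Col4a3-/- replicate 1, -0.05 without replicate 2 and -1.23 without replicate 3 (adjusted p = 0.674). Ucp1, the brown fat relative of Ucp3, was ordered otherwise: its highest value, 11.06, was in Col4a3-/- replicate 2, the heart with the lowest Ucp3. The 5 brown fat markers summed to 12.2 to 12.3 in Col4a3-/-OPN-/- hearts, 12.03 to 12.97 in Col4a3-/- hearts and 12.3 to 12.5 in wild type hearts.

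Angptl4, which keeps triglyceride in the blood by blocking lipoprotein lipase, read 6.82, 6.18 and 7.95 in Col4a3-/-OPN-/- hearts, 5.69, 6.75 and 7.23 in Col4a3-/- hearts, and 7.28, 7.92 and 6.79 in wild type hearts. Unlike for Ucp3 and Acot1, Col4a3-/- replicate 3 (7.23) lay inside the wild type range. The lowest heart was Col4a3-/- replicate 1, as for Pdk4. Angptl4 averaged 6.99 ± 0.90, 6.56 ± 0.79 and 7.33 ± 0.56 in Col4a3-/-OPN-/-, Col4a3-/- and wild type hearts. The difference of Col4a3-/- from wild type was -0.77 (SE 0.48, 95% interval -1.82 to 0.28) and did not pass the test (adjusted p = 0.683). It was -0.24 with Y-linked signal as a covariate, -0.34 without Col4a3-/- replicate 1, -0.48 without wild type replicate 2 and -1.11 without Col4a3-/- replicate 3. Col4a3-/-OPN-/- was 0.43 above Col4a3-/- (95% interval -0.62 to 1.48, adjusted p = 0.722) and at -0.34 relative to wild type, and each of these had the opposite sign with 1 Col4a3-/-OPN-/- heart left out. Lpl, the lipase that Angptl4 inhibits, differed by -0.07, 0.13 and 0.20 for Col4a3-/-OPN-/- against Col4a3-/-, Col4a3-/-OPN-/- against wild type and Col4a3-/- against wild type. Gpihbp1, which anchors the lipase on capillaries, differed by 0.23, 0.06 and -0.17 in the same comparisons, and 0 of the 8 tested genes of the lipase system passed the test.

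Cd36 was the least variable of the 7 tested members. It measured 11.94, 11.90 and 12.11 in Col4a3-/-OPN-/- hearts, 11.77, 11.87 and 12.07 in Col4a3-/- hearts, and 11.83, 11.80 and 11.97 in wild type hearts. All 9 hearts lay within 0.34, and replicate 3 was the highest in each genotype. Col4a3-/-OPN-/- against Col4a3-/- was 0.08 (95% interval -0.14 to 0.30, adjusted p = 0.744), Col4a3-/-OPN-/- against wild type 0.12 (95% interval -0.10 to 0.34) and Col4a3-/- against wild type 0.04 (95% interval -0.18 to 0.26, adjusted p = 0.941). Here the intervals are narrow, with no bound farther from 0 than 0.34. Of 10 tested genes of fatty acid uptake and binding 0 passed the test; the widest value was that of Fabp5, a fatty acid binding protein, at -0.62 for Col4a3-/- against wild type.

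Plin2, the droplet coat protein, measured 8.44, 8.41 and 8.77 in Col4a3-/-OPN-/- hearts, 8.23, 8.77 and 8.97 in Col4a3-/- hearts, and 8.57, 8.65 and 8.38 in wild type hearts. Col4a3-/- hearts again held both the highest and the lowest value. The means of 8.54 ± 0.20, 8.66 ± 0.38 and 8.53 ± 0.14 in Col4a3-/-OPN-/-, Col4a3-/- and wild type hearts differed by less than the spread within a genotype. Col4a3-/- against wild type was 0.12 (95% interval -0.30 to 0.55, adjusted p = 0.886) and Col4a3-/-OPN-/- against Col4a3-/- was -0.12 (95% interval -0.54 to 0.31, adjusted p = 0.820). Pnpla2, the lipase that opens the breakdown of droplet triglyceride, differed by 0.06 for Col4a3-/- against wild type and by -0.0049 for Col4a3-/-OPN-/- against Col4a3-/-. Of 21 tested genes of droplet proteins and lipases 0 passed the test in any comparison. Fgf21 lay at 4.66 to 4.89 in Col4a3-/-OPN-/- hearts, 4.84 to 5.04 in Col4a3-/- hearts and 4.84 to 4.85 in wild type hearts, all under the filter of 5.21, so no change could be measured. Klb, the co-receptor that FGF21 needs, was also under the filter on average, at 4.59 to 5.72 over the 9 hearts.

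Across members, 0 of 7 passed the test in any comparison, where the share called among all 13650 tested probe sets was 0.044% for Col4a3-/-OPN-/- against Col4a3-/-, 0.0% for Col4a3-/-OPN-/- against wild type and 0.0% for Col4a3-/- against wild type. At an unadjusted limma p under 0.05 the members again counted 0 of 7 in each comparison, against 13.6%, 3.68% and 8.35% of all tested probe sets in that order. The groups overlapped for all 7 members in all 3 comparisons, while 16.5%, 13.2% and 12.5% of tested probe sets had groups without overlap. The F-test for any difference among the 3 genotypes called 0 of 7, against 0.0147% of all, and counted 0 of 7 at an unadjusted p under 0.05, against 9.3% of all. For Col4a3-/-OPN-/- against Col4a3-/- the median member difference was 0.26, with 2 of 7 below 0, beside a median of 0.04 and 42.3% below 0 over all tested probe sets. For Col4a3-/-OPN-/- against wild type it was -0.07, with 4 of 7 below 0, beside 0.01 and 46.9%. For Col4a3-/- against wild type it was -0.48, with 4 of 7 below 0, beside -0.02 and 55.0%. The comparisons share their hearts pairwise, so medians of opposite sign in both comparisons that use Col4a3-/- rest on the same 3 hearts. Without Col4a3-/- replicate 3, Col4a3-/- against wild type was below 0 for 7 of 7 (adjusted p 0.415 to 0.982), and Col4a3-/-OPN-/- against Col4a3-/- was above 0 for 7 of 7 (adjusted p 0.267 to 0.940). That heart was the highest Col4a3-/- heart for all 7 members, so leaving it out lowers each Col4a3-/- mean. The shares of all tested probe sets below or above 0 were not counted in fits with 1 heart left out. Other hearts moved the medians the other way. The median for Col4a3-/-OPN-/- against Col4a3-/- was -0.07 without Col4a3-/- replicate 1, with 5 of 7 below 0, and -0.06 without Col4a3-/-OPN-/- replicate 3. The median for Col4a3-/- against wild type was -0.16 without Col4a3-/- replicate 1 and -0.05 without Col4a3-/- replicate 2.

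**Figure D2:**
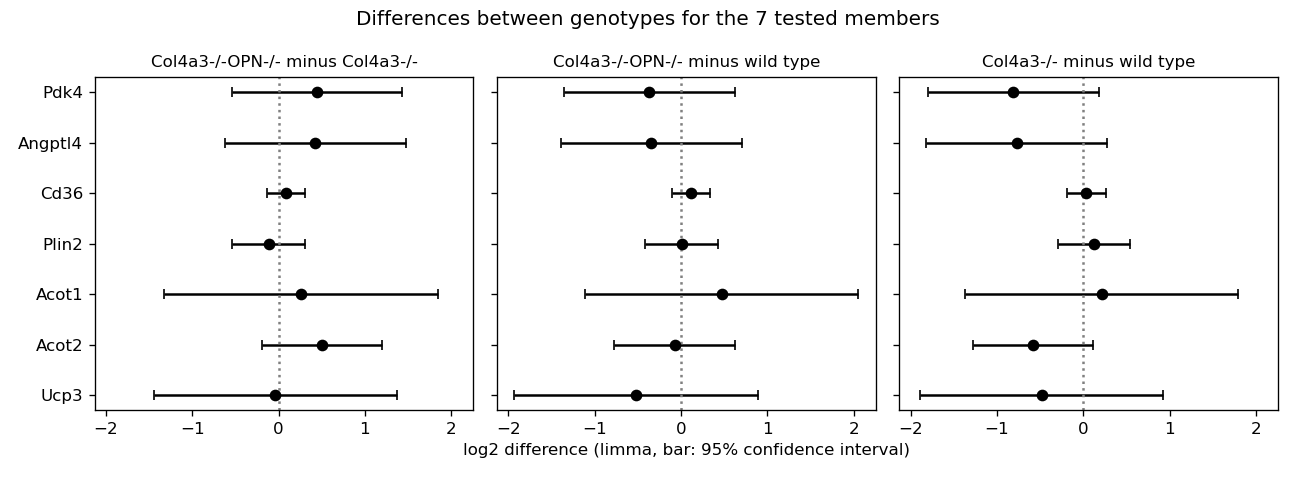
Log2 differences between genotypes (horizontal axis) with 95% confidence intervals from limma for the 7 tested members, in 1 panel per comparison. All 21 intervals include 0, and they are narrowest for Cd36 and widest for Acot1.

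Most members spread widely between hearts of the same genotype. The residual SD of the fit, which takes the genotype means out, was 1.17 for Acot1, 1.04 for Ucp3, 0.762 for Angptl4, 0.728 for Pdk4 and 0.507 for Acot2. These lay at the percentiles 99.9, 99.8, 99.4, 99.3 and 97.5 of the 13650 tested probe sets. Plin2 (0.263) was at percentile 78.5 and Cd36 (0.121) at 19.5. The spread was not limited to mutants, since the range over the 3 wild type hearts was at percentile 99.4 for Angptl4 and 99.2 for Ucp3, though at 88.7 for Pdk4, 89.2 for Acot1 and 89.6 for Acot2. For each member the largest range within a genotype exceeded the span of the 3 genotype means, by 2.24 times for Acot2 up to 6.26 times for Acot1.

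The hearts at the extremes were largely the same from gene to gene. In both Col4a3-/-OPN-/- and Col4a3-/- hearts replicate 3 was the highest of its genotype for 7 of 7 members. Replicate 3 was singled out after the values were seen, and the same held for 14.2% of all tested probe sets (30.3% for Col4a3-/-OPN-/- alone and 35.6% for Col4a3-/- alone). The distance of replicate 3 from the mean of the other 2 hearts of its genotype was 1.80 in Col4a3-/-OPN-/- and 2.94 in Col4a3-/- for Acot1, 1.93 and 2.25 for Ucp3, 0.82 and 1.73 for Pdk4, and 0.19 and 0.25 for Cd36. Col4a3-/- replicate 1 was among the lowest 3 of 9 hearts for 7 of 7 members, and Col4a3-/- replicate 2 for 5 of 7. Wild type hearts held the highest or the lowest place for 0 of 7. How many of all tested probe sets place these hearts alike was not counted. Col4a3-/- hearts also agreed least among themselves over all tested probe sets, so these places may not be particular to the members.

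**Figure D3:**
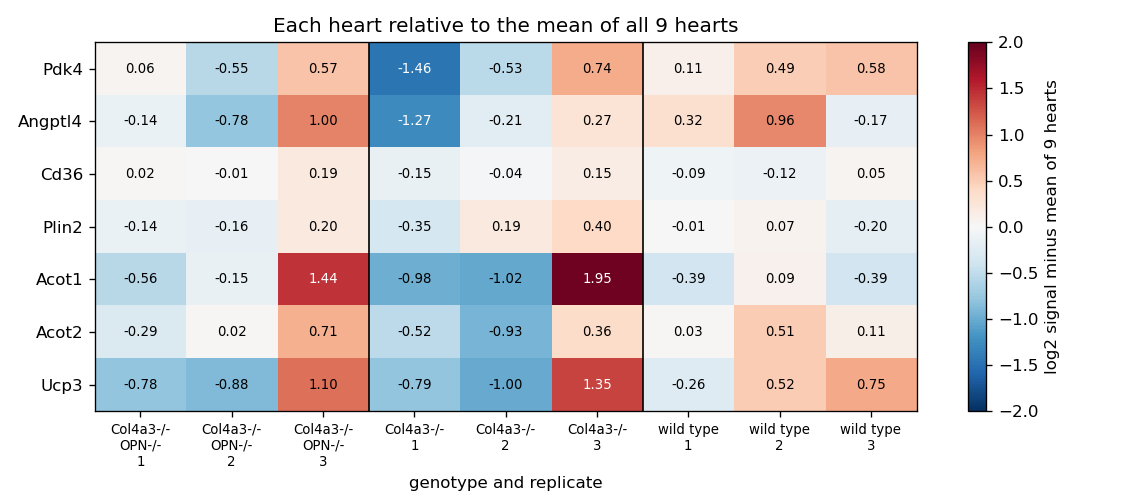
Log2 signal of each tested member (rows) in each heart (columns) minus its mean over the 9 hearts, as numbers and colour. Both mutant replicate 3 columns are above 0 in every row, and the column of Col4a3-/- replicate 1 is below 0 in every row.

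The 2 high hearts differed in other tissue markers. Alb, the gene of the liver protein albumin, measured 6.19, 5.27 and 5.29 in Col4a3-/-OPN-/- hearts, 6.52, 5.46 and 10.54 in Col4a3-/- hearts, and 5.43, 5.53 and 5.16 in wild type hearts. Alb was thus high in Col4a3-/- replicate 3 and within the wild type range in Col4a3-/-OPN-/- replicate 3. Another liver marker, Ttr, was the highest of its genotype in both of these hearts. Of 6 liver markers 3 were above the filter. The summed signal of all 6 was 7.86 to 8.10, 7.83 to 11.0 and 8.04 to 8.07 in Col4a3-/-OPN-/-, Col4a3-/- and wild type hearts. The 5 of 6 white fat markers with a probe set (4 above the filter, with Lep below it) summed to 11.3 to 11.9, 11.3 to 12.0 and 11.5 to 11.7. Macrophage markers (6 of 6) summed to 10.4 to 11.0, 10.6 to 11.3 and 10.5 to 10.7, and endothelial markers (5 of 5) to 11.5 to 11.7, 11.0 to 11.6 and 11.6 to 11.7. The 3 hearts with high Xist included the lowest and the highest Pdk4 values, 10.39 and 12.58.

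Some pairs of members went together from heart to heart. Correlations were computed for 15 pairs of 6 members over the 9 hearts, leaving out Acot1 because its hearts fell into separate clusters (a largest gap of 45.6% of the range, past a limit of 40% set after the values were seen). Ucp3 had the next largest gap, from 8.26 to 9.04 with 4 hearts above it (33.1% of its range), and was kept in. All 15 Pearson's r were positive, and 3 had an adjusted p under 0.05 by exact permutation (2 by Spearman's rho). The permutations shuffled all 9 hearts without regard to genotype. How many pairs among all tested probe sets are positive or pass was not counted. The 2 pairs that passed by both measures include Ucp3, so its gap bears on them. Pairs with Cd36 or Plin2 were among the 12 that did not pass. With genotype means taken out (within genotypes), r of pairs with Cd36 or Plin2 ran from 0.585 (Plin2 and Acot2) to 0.914 (Angptl4 and Plin2). Several of these pairs rested on the outermost hearts. Without the 2 hearts farthest from the median of the first gene, r was -0.305 for Angptl4 and Cd36, -0.049 for Cd36 and Plin2, 0.013 for Cd36 and Acot2, 0.026 for Plin2 and Acot2, 0.121 for Pdk4 and Plin2, and 0.129 for Cd36 and Ucp3. Ucp3 and Pdk4 had r = 0.819 (two-sided exact permutation p = 0.00591, adjusted 0.0296) and Spearman's rho = 0.917 (exact permutation p = 0.00131, adjusted 0.0197). The value was 0.935 without the 2 hearts farthest from the median of Pdk4, and 0.849 within genotypes. Ucp3 and Acot2 had r = 0.823 (exact permutation p = 0.00579, adjusted 0.0296) and rho = 0.867 (exact permutation p = 0.00451, adjusted 0.0338), with r = 0.771 without the 2 farthest hearts and 0.913 within genotypes. Angptl4 and Pdk4 had r = 0.832 (exact permutation p = 0.00414, adjusted 0.0296) and rho = 0.683 (exact permutation p = 0.0503, adjusted 0.110). That r was 0.514 without Col4a3-/- replicate 1 and Col4a3-/-OPN-/- replicate 2, so the relation of Angptl4 and Pdk4 rests on those hearts, and it was 0.785 within genotypes.

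**Figure D4:**
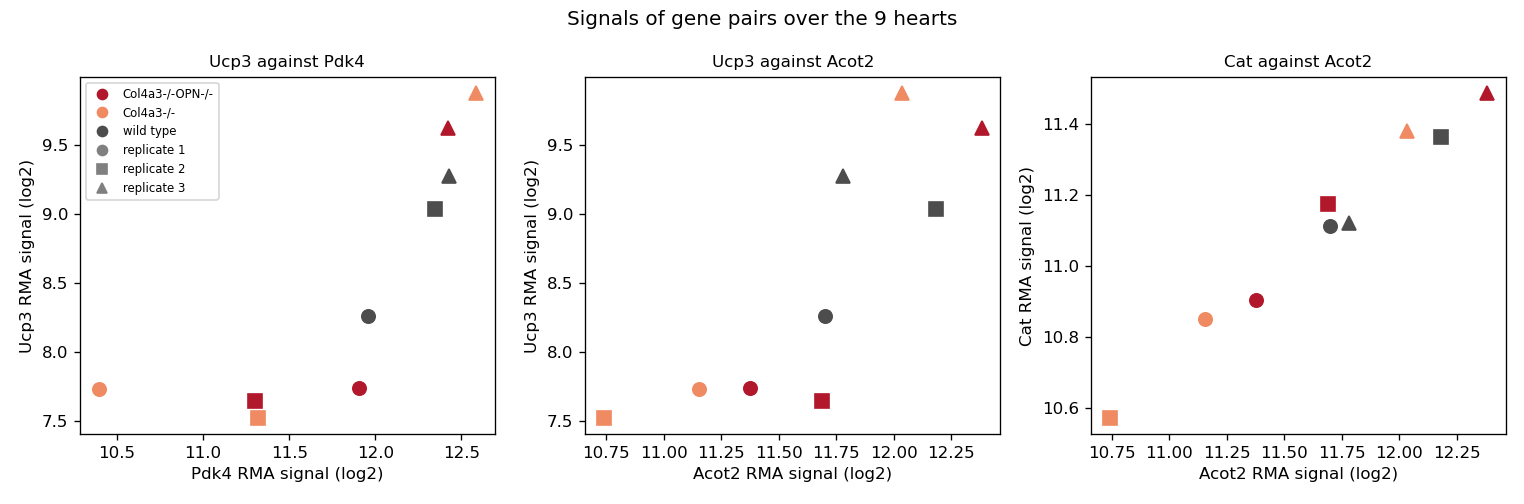
Log2 signals of gene pairs in the 9 hearts, with colour for genotype and marker shape for replicate. Ucp3 goes with Pdk4 (r = 0.819) and with Acot2 (r = 0.823), and Cat goes with Acot2 (r = 0.989).

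Outside the members, the genes whose signal was most like each member over the 9 hearts were ranked by Pearson's r among all tested probe sets, as a description without a test. For Acot2 the first was Cat, the peroxisomal enzyme catalase, at r = 0.989, followed by Abhd4 (0.964) and Aldh6a1 (0.945). Cat measured 10.90, 11.17 and 11.49 in Col4a3-/-OPN-/- hearts, 10.85, 10.57 and 11.38 in Col4a3-/- hearts, and 11.11, 11.36 and 11.12 in wild type hearts. It thus had the same lowest heart, Col4a3-/- replicate 2, and the same highest heart, Col4a3-/-OPN-/- replicate 3, as Acot2. For Ucp3 the first was Hsd17b11, a lipid droplet dehydrogenase (0.980), and for Pdk4 it was Klf9, a transcription factor that glucocorticoids induce (0.934). Klf9 read 9.93, 9.84 and 10.02 in Col4a3-/-OPN-/- hearts, 9.42, 9.69 and 10.29 in Col4a3-/- hearts, and 9.96, 10.10 and 9.95 in wild type hearts. The closest to Angptl4 was Tom1 (0.929), to Cd36 Cilk1 (0.965) and to Plin2 Hgs (0.936).

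Ppara, the receptor gene, differed by 0.03, 0.04 and 0.00 for Col4a3-/-OPN-/- against Col4a3-/-, Col4a3-/-OPN-/- against wild type and Col4a3-/- against wild type. Its signal was 7.11, 7.56 and 7.22 in Col4a3-/-OPN-/- hearts, 7.18, 7.45 and 7.16 in Col4a3-/- hearts, and 7.12, 7.23 and 7.43 in wild type hearts, so Ppara was not at its highest in the 2 hearts where Acot1 and Ucp3 were. Ppargc1a, the coactivator PGC-1alpha, had the widest differences of 17 tested receptor and coactivator genes, at 0.39 for Col4a3-/-OPN-/- against Col4a3-/- and -0.55 for Col4a3-/- against wild type (adjusted p = 0.420 and 0.506). In Col4a3-/- replicate 3, which was highest for 4 members, Ppargc1a was at 9.44, its lowest value of the 9 hearts.

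A wider list of 38 tested PPAR-alpha targets outside the members gave 0 calls in each comparison. For Col4a3-/-OPN-/- against Col4a3-/- the median was 0.13, with 27 of 38 above 0 and 11 below, beside 42.3% of all tested probe sets below 0. For Col4a3-/- against wild type it was -0.08, with 25 of 38 below 0, beside 55.0% of all tested probe sets. Both comparisons use the same 3 Col4a3-/- hearts. Retsat, an enzyme of retinol metabolism, had the widest values, 0.75 and -0.78 in these comparisons (adjusted p = 0.346 and 0.553). At an unadjusted limma p under 0.05 there were 10 of 38 for Col4a3-/-OPN-/- against Col4a3-/-, beside 13.6% of all tested probe sets. There was 1 of 38 for Col4a3-/-OPN-/- against wild type, beside 3.68%, and 3 of 38 for Col4a3-/- against wild type, beside 8.35%. Groups without overlap for Col4a3-/-OPN-/- against Col4a3-/- were seen for 7 of the 38, near the 16.5% of all tested probe sets. Cpt1a, an isoform of the enzyme that admits fatty acids to mitochondria, was 1 of the 7. It had 8.31, 8.24 and 8.72 in Col4a3-/-OPN-/- hearts and 7.81, 7.95 and 8.11 in Col4a3-/- hearts (difference 0.47, limma adjusted p = 0.303). Ehhadh, a peroxisomal oxidation enzyme, was likewise highest in replicate 3 of both mutant genotypes, at 6.50, 6.68 and 7.35 in Col4a3-/-OPN-/- hearts, 6.63, 6.63 and 7.87 in Col4a3-/- hearts, and 6.41, 6.76 and 6.69 in wild type hearts. Unlike for Acot1, its Col4a3-/- replicates 1 and 2 lay within the wild type range. Replicate 3 was the highest of both mutant genotypes for 12 of these 38 genes (31.6%), Cpt1a, Ehhadh, Plin5, Pnpla2 and Slc25a20 among them, beside the 14.2% over all tested probe sets.

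Genes of other lists were counted in the same way. The lists share genes: Per1 is counted among both glucocorticoid-induced and clock genes, and Klf15 among both glucocorticoid-induced genes and PPAR coactivators. Replicate 3 was the highest in both mutant genotypes for 8 of 13 glucocorticoid-induced genes (61.5%), among them Fkbp5, Klf9, Per1 and Tsc22d3. It was the highest for 6 of 15 insulin and FOXO genes, among them Fbxo32 and Trim63, ubiquitin ligases of muscle wasting, and for 6 of 15 clock genes. Fbxo32 read 9.44, 9.15 and 10.09 in Col4a3-/-OPN-/- hearts, 9.06, 9.13 and 10.90 in Col4a3-/- hearts, and 9.43, 9.75 and 9.64 in wild type hearts. Other lists lay near or below the 14.2% of all tested probe sets, with 1 of 17 PPAR receptors and coactivators (5.88%), 1 of 15 thioesterases and synthetases, 1 of 10 uptake genes, 3 of 21 droplet genes, 2 of 12 pyruvate dehydrogenase genes and 1 of 8 genes of the lipase system. The count was 2 of 11 for FGF21 receptors and stress genes and 1 of 5 for mitochondrial carriers. Among marker lists it was 2 of 5 for endothelium (Gpihbp1 and Pecam1) and 1 of 3 for liver (Ttr), and 0 for cardiomyocytes, brown fat, white fat, macrophages, atrium and lung. Between genotypes, none of the 164 tested genes of the 12 pathway lists passed the test, with smallest adjusted p-values of 0.156 for Col4a3-/-OPN-/- against Col4a3-/-, 0.999 for Col4a3-/-OPN-/- against wild type and 0.451 for Col4a3-/- against wild type. At an unadjusted limma p under 0.05 there were 25, 3 and 13 of the 164. Over all tested probe sets the shares were 13.6%, 3.68% and 8.35% in that order.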

How the data were processed

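The deposited values are log2 signals per probe set made by the authors with RMA, per the submitters' processing notes; the software version was not given in the sources used here. RMA equalises arrays (medians 5.18 to 5.24), so a change in total RNA is not seen. The labelling kit in the labels is one made for small RNA, but these are gene array values, so how the RNA was labelled is uncertain. Of 33793 probe sets, 23521 had 1 gene symbol in the platform annotation, 1814 had several and 8458 were not listed there; genes were named only from those with 1. Tested were the 13650 whose mean exceeded 5.21, which is the median over all probe sets. All 9 arrays entered 1 fit (limma 3.58.1, lmFit and eBayes with an intensity trend, R 4.3.3), with two-sided p-values adjusted over all tested probe sets by Benjamini-Hochberg at 0.05. Precision is limited by the number of arrays (median SE of a log2 difference 0.149). An exact permutation of 3 hearts against 3 cannot pass this threshold, so none was run per gene. The members and lists were chosen with earlier results of these data known. Named were all members, extremes of each list, direct partners and up to 3 most similar genes per member; genes named from heart order (Fbxo32, Ehhadh, Cpt1a and others) were chosen after their values were seen. Marker sums are log2 of the added linear signals of all genes of a list with a probe set, also those below the filter. Alternatives were other normalizations, filters, moderation, array weights, a replicate block, a Y-linked covariate, fits of 2 groups and each heart left out. The fit was tested on simulated data.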

Additional observations from a re-analysis of the deposited data

How the results depend on the processing

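No member passed the threshold under any of 19 alternatives (399 values, smallest adjusted p 0.267 for Col4a3-/-OPN-/- against Col4a3-/-, 0.754 for Col4a3-/-OPN-/- against wild type and 0.331 for Col4a3-/- against wild type), and 374 of the 399 values kept their sign. Of the 25 that did not, 6 came from other settings. Plin2 in Col4a3-/-OPN-/- against wild type was -6.66e-05 with renewed quantile normalization. Acot1 in Col4a3-/- against wild type was -0.31 with array weights and -0.12 with the Y-linked covariate. Ucp3 in Col4a3-/-OPN-/- against Col4a3-/- was 0.00615 with centred arrays, 0.39 with array weights and 0.0111 with the Y-linked covariate. Other settings also moved values by over 1.5 times without a change of sign, among them Angptl4 in Col4a3-/- against wild type (-0.24 with the Y-linked covariate), Ucp3 in the same comparison (-0.88 with array weights) and, for Col4a3-/-OPN-/- against Col4a3-/-, Acot1 (0.80 with array weights) and Acot2 (0.78 with array weights). The other 19 changes of sign came from leaving out 1 heart. For Col4a3-/-OPN-/- against Col4a3-/- the values then ran from -0.0748 to 1.02 for Pdk4, -0.0562 to 0.83 for Angptl4, -0.33 to 0.0424 for Plin2, -0.34 to 1.24 for Acot1 and -0.68 to 0.71 for Ucp3. For Col4a3-/-OPN-/- against wild type they ran from -0.83 to 0.0586 for Angptl4, -0.11 to 0.0737 for Plin2, -0.13 to 0.88 for Acot1 and -0.36 to 0.15 for Acot2. For Col4a3-/- against wild type they ran from -0.0456 to 0.11 for Cd36, -0.0331 to 0.34 for Plin2 and -0.77 to 0.71 for Acot1. The hearts behind the ends were most often Col4a3-/- replicates 1 and 3 and Col4a3-/-OPN-/- replicate 3; the cause was not tested.

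Among all tested probe sets, the 6 calls for Col4a3-/-OPN-/- against Col4a3-/- became 2 with the stricter filter, 2 with array weights, 0 with the Y-linked covariate and 0 to 22 without 1 heart. The 0 calls for Col4a3-/- against wild type became 1 with centred arrays, the stricter filter, eBayes without the trend, robust eBayes or the Y-linked covariate, and 0 to 6 without 1 heart. The 0 calls for Col4a3-/-OPN-/- against wild type became 1 with array weights or the Y-linked covariate, and 0 to 3 without 1 heart. The F-test's 2 calls became 1 with renewed quantile normalization, no filter, the stricter filter, eBayes without the trend or the Y-linked covariate, and 0 to 4 without 1 heart.

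Replicate numbers recur across genotypes, and correlations of deviations between same-numbered hearts ran from -0.19 to 0.23, so not every pair passed 0.1 and the numbers were not taken as pairs. The 3 pairs of replicate 3 were all above 0 (0.06, 0.23 and 0.14). Correlations between differently numbered hearts ran from -0.21 (Col4a3-/-OPN-/- replicate 3 with Col4a3-/- replicate 2) to 0.31 (Col4a3-/-OPN-/- replicate 1 with Col4a3-/- replicate 2). Whether any of the hearts share a batch was not tested. With a replicate block the counts were 0 for Col4a3-/-OPN-/- against Col4a3-/-, 0 in both other comparisons and 0 for the F-test, and no member passed; Pdk4 in Col4a3-/- against wild type stayed at -0.81 (limma adjusted p = 0.531).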
